A study of Homo sapiens with 9 samples.

Results

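The 10 genes described here encode enzymes and binding proteins that write, copy, remove or read DNA methylation and Polycomb marks: DNMT1, DNMT3A, DNMT3B, UHRF1, TET1, TET2, TET3, EZH2, SUZ12 and CBX6. They were chosen by gene symbol, and all 10 of them were found among the 58920 genes listed for every library. RNA was sequenced from LIM1215, a human colorectal cancer cell line with wild-type RAS genes, and from lines derived from it that no longer respond to cetuximab, an antibody that blocks the epidermal growth factor receptor. LIM1215-parental, the parental line, was kept in culture without the drug, while LIM1215-R1 and LIM1215-R2 (Resistant_1 and Resistant_2 in the labels, R1 and R2 from here on) were selected in parallel and independently of each other under rising cetuximab. Both resistant lines are mixed populations and not single clones. According to the study, a subpopulation of each carried an activating HRAS mutation, a different one in R1 and in R2. All 3 lines were sequenced in basal, untreated culture. Each line had 3 libraries, 9 in all.

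The libraries are technical replicates according to the study, so the p-values measure only the spread between these libraries, and a difference between lines cannot be told apart from a difference between the cultures harvested. Because the RNA came from whole cultures, fewer cells expressing a gene and less of its RNA per cell cannot be told apart either. Between 13737416 and 18725014 reads were assigned to genes per library. Levels are counts per 1000000 reads assigned to genes (CPM), scaled between libraries with the trimmed mean of M-values (TMM). Colon epithelial markers were detected at 8 of 9, with summed levels of 12266 to 12616 CPM in the parental line, 15843 to 16125 in R1 and 14355 to 14754 in R2, and the differentiation keratin KRT20 had 0 counts. In each resistant line 4 of these markers, KRT8, KRT18, KRT19 and VIL1, were called higher and 3, EPCAM, CDX1 and CDX2, lower. KRT8 and KRT18 made up most of the sum. The intestinal transcription factor CDX1 went from 195 CPM to 108 and 124, CDX2 from 413 to 305 and 283, and EPCAM from 911 to 758 and 729. The leukocyte genes PTPRC and CD3E had 0 counts, and the summed fibroblast, immune and endothelial markers did not exceed 3.19, 14.6 and 0.722 CPM in any library. CD68 made up most of the immune sum, at 6.79 to 14.2 CPM. The part of these marker levels in the values below was not tested.

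DNA methylation is laid down on cytosines of CpG dinucleotides by DNMT3A and DNMT3B, is copied to the new strand after replication by DNMT1 with the help of UHRF1, and is oxidised towards removal by the TET enzymes. Polycomb repressive complex 2 (PRC2) methylates lysine 27 of histone H3 through its catalytic subunit EZH2 and its scaffold SUZ12. The chromodomain of CBX proteins reads that mark within Polycomb repressive complex 1 (PRC1), which keeps developmental genes silent. Both systems are often altered in colorectal tumours, where many CpG-rich promoters gain methylation.

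CBX6 rose and DNMT3A fell in both resistant lines, and the remaining genes differed from the parental line by less or not past the test. At an adjusted p of at most 0.01 (edgeR quasi-likelihood test, Benjamini-Hochberg over 19102 genes), 5 of the 10 genes passed in R1, 1 higher and 4 lower. Of all genes tested, 27.3% passed in that comparison, 14% higher and 13.4% lower. In R2, 5 of the 10 passed as well, again 1 higher and 4 lower, against 23.8% of all genes, 12.3% higher and 11.6% lower. CBX6, DNMT3A, DNMT3B, TET2 and TET3 were the genes called in each. When a log2 fold change of at least 1.5 in size was also required, CBX6 alone remained in both comparisons, against 5.14% of genes in R1 and 4.82% in R2. The median log2 fold change of the 10 genes was -0.19 in R1 and -0.21 in R2, beside -0.01 and -0.0037 over all genes. Both comparisons share the parental libraries. Non-overlap of libraries, given for single genes below, was common. Of all genes tested, 44% did not overlap between R1 and the parental line, 42.8% between R2 and the parental line and 28% between R2 and R1. Of the 10 genes, 1 lay higher and 4 lower without overlap in R1, and 2 higher and 5 lower in R2. Between the resistant lines, 1 of the 10 genes passed, lower in R2, against 7.16% of all genes and 3.77% in that direction, and none of the 10 passed the fold requirement, against 0.764% of all genes.

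**Figure D1:**
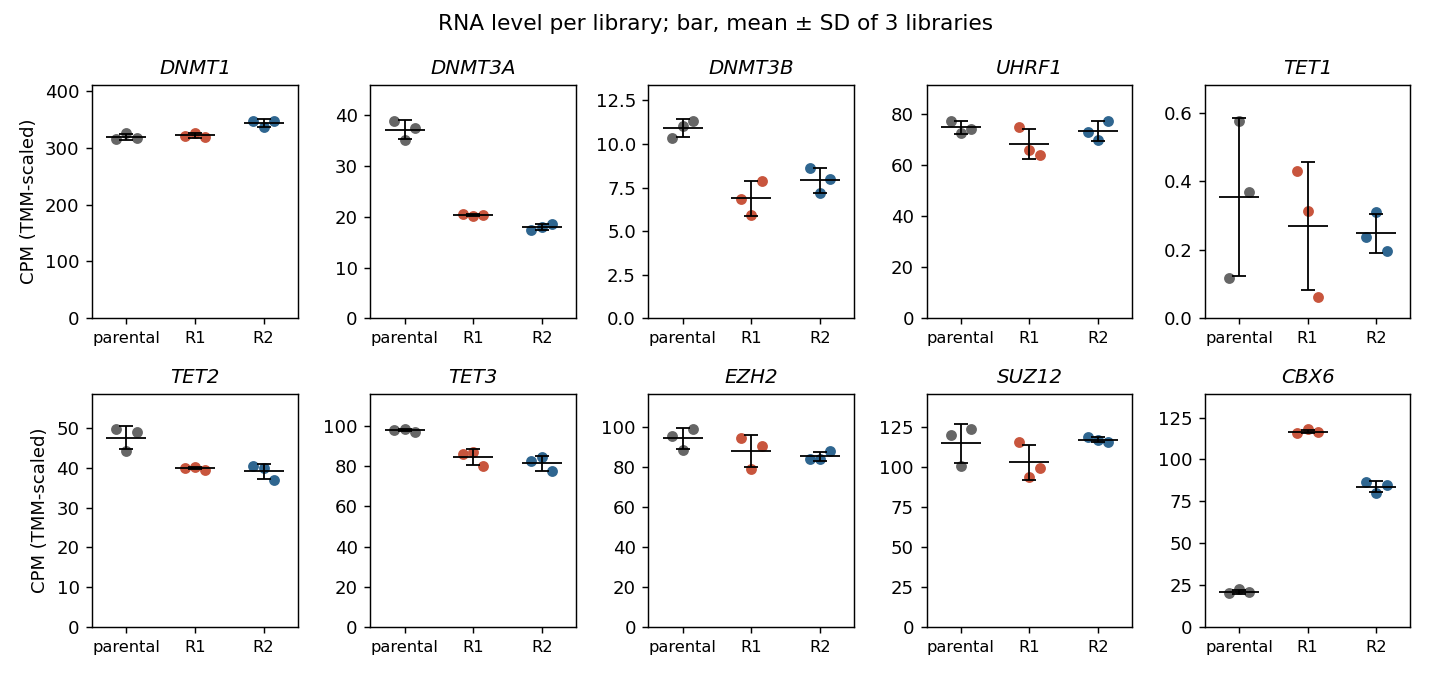
RNA level of each of the 10 genes in CPM (vertical axes, TMM-scaled, each panel with its own range from 0), with 1 point per library and a bar for the mean ± SD of the 3 libraries of the parental line (parental), R1 and R2. CBX6 rises from about 21.0 CPM to 117 and 83.8, DNMT3A falls from 37.2 to 20.3 and 18.0, and the points of DNMT1 stay between 315 and 348 CPM.

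**Figure D2:**
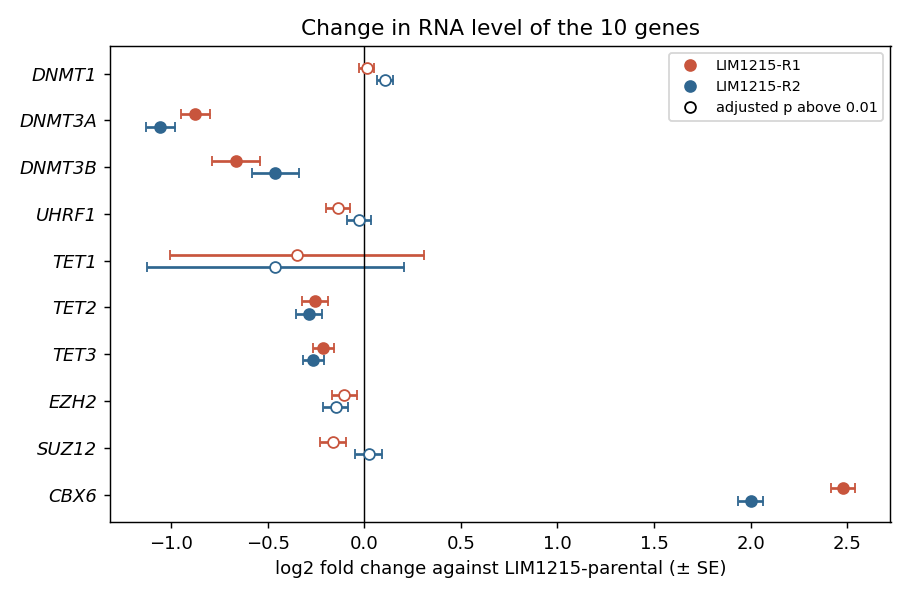
Log2 fold change of the 10 genes against the parental line (horizontal axis), with bars of ± SE from edgeR, in R1 and R2. Filled points have an adjusted p of at most 0.01. CBX6 lies at 2.48 and 2.0 and DNMT3A at -0.88 and -1.05, while TET1, with 42 counts over all libraries, has bars that cross 0.

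CBX6 (chr22:38861422-38872216 of GRCh38.p14, minus strand) encodes one of the chromodomain subunits that can occupy the reader position of canonical PRC1. Its level was 20.1, 22.4 and 20.6 CPM in the parental libraries, 116, 118 and 116 CPM in R1 and 86.7, 80.03 and 84.7 CPM in R2. The 3 lines did not overlap, and the lowest resistant library held several times the level of the highest parental one. The log2 fold change was 2.48 ± 0.0631 (SE, adjusted p = 1.76e-21 by edgeR) in R1 and 2.0 ± 0.0640 (adjusted p = 2e-19 by edgeR) in R2. These are 5.56-fold and 4.0-fold increases. The change was larger in size than that of 95.4% of the genes tested in R1 and 93.3% in R2. R2 lay below R1 by a log2 fold change of -0.48 ± 0.0546 (adjusted p = 4.51e-07 by edgeR), and CBX6 was the 1 gene of the 10 to differ between the resistant lines.

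The promoter of CBX6 is printed because it belongs to the gene with the largest change and is unusually rich in CpG, the target of the methylating enzymes described below. In the RefSeq window from 250 bases before to 50 bases after the start (chr22:38872167-38872466 of GRCh38.p14, minus strand, written 5′ to 3′), capitals mark CpG, of which there are 47. Of the 35116 windows of this length, 97.6% hold fewer. Such richness was not particular to CBX6, since UHRF1 and EZH2, which were not called, each have a window with 46. Of the 22 windows of the 10 genes, 12 hold 30 or more CpG, against 22.4% of all windows.
CBX6: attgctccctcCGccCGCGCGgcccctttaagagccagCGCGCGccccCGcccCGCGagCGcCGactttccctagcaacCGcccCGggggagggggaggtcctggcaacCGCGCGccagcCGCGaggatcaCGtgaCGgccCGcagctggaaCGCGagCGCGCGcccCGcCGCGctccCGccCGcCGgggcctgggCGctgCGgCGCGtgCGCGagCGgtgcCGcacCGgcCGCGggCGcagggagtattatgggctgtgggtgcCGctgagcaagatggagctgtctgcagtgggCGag
The letters TGAGTCA, the AP-1 motif, are in none of the 22 windows of the 10 genes on either strand, against 4.95% of all windows. The GC box GGGCGG is in 15 of the 22, against 45% of all windows. Promoter methylation itself was not measured in these data.

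CBX2, CBX7 and CBX8, which encode other readers of the same family, were not called in either line. Their log2 fold changes were -0.12, -0.04 and -0.06 in R1 and -0.09, 0.02 and -0.02 in R2 (adjusted p from 0.204 to 0.909 by edgeR). Per kb of transcript, CBX6 was the lowest of these 4 genes in the parental line at 3.47 ± 0.202 CPM per kb and the highest of the 4 in R1 and R2, at 19.3 ± 0.193 and 13.8 ± 0.566 (SD, n = 3 libraries). Its share of the summed level of the 4 genes per kb moved from 12.1% ± 0.295 in the parental line to 44.7% ± 0.789 in R1 and 36.1% ± 1.09 in R2.

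**Figure D3:**
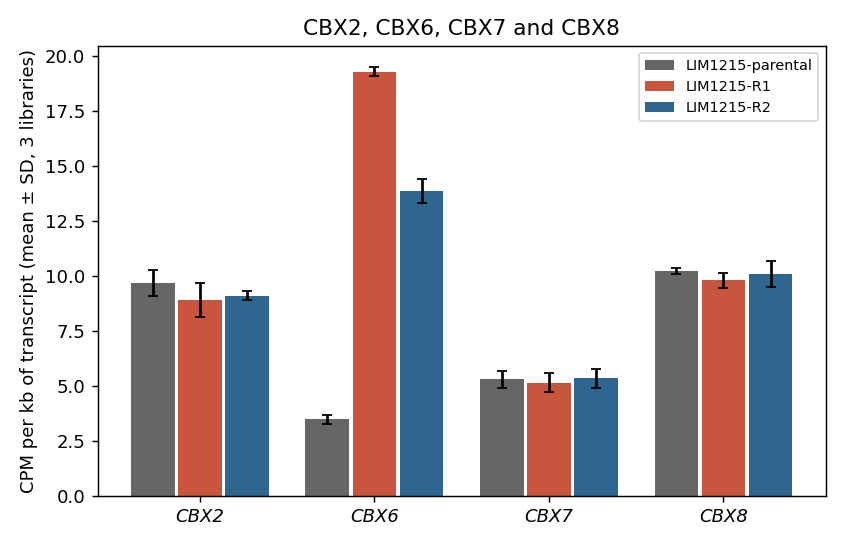
Level of CBX2, CBX6, CBX7 and CBX8 in CPM per kb of transcript (vertical axis, from 0), as bars for the mean of 3 libraries with the SD, in the parental line, R1 and R2. CBX6 stands at 3.47, 19.3 and 13.8 CPM per kb and goes from the lowest to the highest of the 4, while the bars of CBX2, CBX7 and CBX8 lie between 5.14 and 10.2.

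DNMT3A (chr2:25227874-25342590, minus strand) encodes a de novo DNA methyltransferase that acts on previously unmethylated CpG. Its level was 39.0, 35.2 and 37.5 CPM in the parental libraries, 20.5, 20.1 and 20.4 CPM in R1 and 17.4, 17.9 and 18.6 CPM in R2. Every resistant library lay below every parental one, and the R2 libraries lay just below those of R1. The log2 fold change was -0.88 ± 0.0753 (SE, adjusted p = 2.73e-10 by edgeR) in R1 and -1.05 ± 0.0765 (adjusted p = 8.83e-12 by edgeR) in R2, or 1.83-fold and 2.08-fold lower. The difference between the resistant lines, -0.18 ± 0.0818, did not pass (adjusted p = 0.170 by edgeR). DNMT3A changed more than 80.2% of the genes tested in R1 and 84.3% in R2.

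DNMT3A has several starts, and its 6 RefSeq windows hold 18 to 46 CpG. A pair is printed to show the range near 2 of its starts, with CpG in capitals. The first (chr2:25341876-25342175, minus strand) is the richest of the 6, with 46 CpG, more than 97.1% of all windows, and lies at the 5′ end of the gene, where 2 other windows further upstream hold 26 and 18. The second (chr2:25252266-25252565, minus strand) is the richest of 3 inside the gene, with 28, more than 73.8% of all windows. Gene-level counts do not separate the transcripts that begin at these starts.
DNMT3A 5′ end: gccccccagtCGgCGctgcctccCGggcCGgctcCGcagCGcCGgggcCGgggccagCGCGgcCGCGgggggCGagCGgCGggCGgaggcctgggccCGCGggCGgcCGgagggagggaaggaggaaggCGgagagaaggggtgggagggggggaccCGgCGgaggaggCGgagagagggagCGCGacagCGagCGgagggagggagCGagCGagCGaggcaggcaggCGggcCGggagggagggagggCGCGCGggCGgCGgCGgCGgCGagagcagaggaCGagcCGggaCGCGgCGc
DNMT3A internal: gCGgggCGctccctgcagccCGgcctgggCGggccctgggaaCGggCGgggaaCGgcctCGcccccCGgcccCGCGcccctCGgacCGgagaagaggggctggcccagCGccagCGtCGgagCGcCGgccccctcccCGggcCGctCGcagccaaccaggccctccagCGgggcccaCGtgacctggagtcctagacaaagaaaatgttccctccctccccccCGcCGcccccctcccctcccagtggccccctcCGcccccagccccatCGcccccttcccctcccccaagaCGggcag

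DNMT3B (chr20:32762385-32809356, plus strand), the second de novo methyltransferase, stood at 10.3, 11.1 and 11.3 CPM in the parental line, 6.87, 5.90 and 7.88 CPM in R1 and 8.62, 7.19 and 7.97 CPM in R2. The resistant libraries lay below the parental ones and overlapped with each other. DNMT3B fell by 0.66 on the log2 scale in R1 (SE 0.124, adjusted p = 0.0001 by edgeR). It fell by 0.46 in R2 (SE 0.122, adjusted p = 0.004 by edgeR). The second call is not firm, since the adjusted p was 0.0224 without parental replicate 3, 0.0342 without R2 replicate 2, 0.0120 without R2 replicate 3 and 0.0125 with DESeq2. The only DNMT3B window lies inside the gene (chr20:32779602-32779901, plus strand). It holds 3 CpG, shown in capitals, and 18.2% of all windows hold fewer. No window covers the upstream end of the gene, so this one does not describe the CpG content there.
DNMT3B internal: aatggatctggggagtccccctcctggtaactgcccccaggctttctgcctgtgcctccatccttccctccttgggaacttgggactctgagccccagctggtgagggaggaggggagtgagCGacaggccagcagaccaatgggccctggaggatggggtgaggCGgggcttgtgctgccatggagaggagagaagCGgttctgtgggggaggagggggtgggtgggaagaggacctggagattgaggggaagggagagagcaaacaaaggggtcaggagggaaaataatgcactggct

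DNMT1 (chr19:10133346-10194953, minus strand), the maintenance methyltransferase, was the most abundant of the 10 genes. Its level was 315, 326 and 317 CPM in the parental line, 320.5, 327 and 319.6 CPM in R1 and 348, 336 and 348 CPM in R2. R1 overlapped with the parental line, whereas R2 lay slightly above both. The log2 fold change was 0.01 ± 0.0406 (SE, adjusted p = 0.861 by edgeR) in R1 and 0.11 ± 0.0405 (adjusted p = 0.0419 by edgeR) in R2. With GC and length trends removed, the R2 value was 0.12 with an adjusted p of 0.00179. Per kb, DNMT1 made up 90.4% of the RNA of the 3 methyltransferases in the parental line, 94.2% in R1 and 94.6% in R2. The ratio of DNMT1 to DNMT3A per kb went from 15.4 to 28.3 and 34.3. All levels per kb assume the canonical transcript of each gene, so shares, ratios and ranks between genes depend on that choice.

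UHRF1 (chr19:4903080-4962154, plus strand), which brings DNMT1 to newly replicated DNA, stood at 77.3, 72.5 and 74.1 CPM in the parental line, 74.6, 65.8 and 63.6 CPM in R1 and 72.8, 69.6 and 77.2 CPM in R2. The 3 lines overlapped. Its log2 fold change was -0.13 ± 0.0631 (SE, adjusted p = 0.103 by edgeR) in R1 and -0.03 ± 0.0628 (adjusted p = 0.789 by edgeR) in R2.

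TET1, TET2 and TET3 oxidise methylated cytosine. TET1 (chr10:68560337-68694487, plus strand) was barely detected, with 2, 8 and 7 counts in the parental line, 7, 5 and 1 in R1 and 4, 5 and 3 in R2. At this depth its log2 fold changes of -0.35 ± 0.657 and -0.46 ± 0.666 (SE, adjusted p = 0.741 and 0.666 by edgeR) would leave a small or moderate change undetected. TET2 (chr4:105145875-105279803, plus strand) stood at 49.7, 44.3 and 49.0 CPM in the parental line, 40.1, 40.3 and 39.6 CPM in R1 and 40.4, 40.1 and 37.0 CPM in R2. TET3 (chr2:73983631-74135498, plus strand) stood at 98.1, 98.4 and 97.2 CPM in the parental line, 86.1, 87.3 and 80.2 CPM in R1 and 82.8, 84.5 and 77.4 CPM in R2. For both genes every resistant library lay below every parental one, and the resistant lines overlapped with each other.

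TET2 fell by 0.26 and 0.29 on the log2 scale in R1 and R2 (SE 0.0666 and 0.0668, adjusted p = 0.00318 and 0.0013 by edgeR). TET3 fell by 0.21 and 0.26 (SE 0.0546 and 0.0547, adjusted p = 0.00285 and 0.000387 by edgeR). These are decreases of 1.19-fold and 1.22-fold for TET2 and 1.16-fold and 1.20-fold for TET3. The TET2 call in R1 was lost without parental replicate 1 or 3 or R1 replicate 3 (adjusted p = 0.0238, 0.0210 and 0.0171 by edgeR), and with GC and length trends removed the change was -0.10 (adjusted p = 0.167). The TET2 call in R2 was lost without parental replicate 1 or 3 or R2 replicate 3 (adjusted p = 0.0117, 0.0102 and 0.0113 by edgeR). The TET3 call in R1 was lost without parental replicate 1 or 3 or R1 replicate 3 (adjusted p = 0.0113, 0.01003 and 0.0345 by edgeR) and with the trends removed, at -0.12 (adjusted p = 0.0231). Per kb, TET3 made up 61.9%, 62.5% and 62.2% of the TET RNA in the 3 lines, so the balance between TET3 and TET2 moved little.

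EZH2 (chr7:148807383-148884291, minus strand), the methyltransferase of PRC2, stood at 95.5, 88.2 and 98.7 CPM in the parental line, 94.3, 78.6 and 90.5 CPM in R1 and 83.8, 83.6 and 87.9 CPM in R2. R1 overlapped with the parental line and R2 lay just below it. The log2 fold change was -0.10 ± 0.0626 (SE, adjusted p = 0.225 by edgeR) in R1 and -0.15 ± 0.0627 (adjusted p = 0.0739 by edgeR) in R2. Without R1 replicate 2 the R1 value was -0.03, without parental replicate 3 it was -0.07 and without R1 replicate 1 it was -0.16, none of which passed. EZH1, its paralog, was not called either, with log2 fold changes of -0.21 and -0.19 (adjusted p = 0.0488 and 0.0866 by edgeR). EZH2 held 86.5%, 87.3% and 86.8% of the summed EZH1 and EZH2 level per kb.

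SUZ12 (chr17:31937007-32001038, plus strand), without which PRC2 does not assemble, stood at 120.4, 101 and 124 CPM in the parental line, 115, 94.1 and 99.6 CPM in R1 and 119, 117 and 116 CPM in R2. The parental libraries spread over most of the range of all 9. The log2 fold change was -0.16 ± 0.0693 (SE, adjusted p = 0.0719 by edgeR) in R1 and 0.02 ± 0.0688 (adjusted p = 0.855 by edgeR) in R2. The R1 value moved with single libraries. It was -0.10 (adjusted p = 0.340 by edgeR) without parental replicate 3 and -0.10 (adjusted p = 0.296) without R1 replicate 2, and -0.05 (adjusted p = 0.419) with GC and length trends removed. In the other direction, it was -0.24 (adjusted p = 0.00198 by edgeR) without parental replicate 2 and -0.25 (adjusted p = 0.0033 by edgeR) without R1 replicate 1. Without the latter, R2 also lay above R1, at 0.27 (adjusted p = 0.0046 by edgeR). The near-identical pseudogene SUZ12P1 received 1603 counts over the 9 libraries beside 16420 for SUZ12, so reads shared by the copies leave the SUZ12 level uncertain.

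Set per kb of transcript, the order of levels in the parental line was DNMT1, EZH2, SUZ12, UHRF1, TET3, TET2, DNMT3A, CBX6, DNMT3B and TET1, from 60.6 to 0.0369 CPM per kb. CBX6 was at place 8 in that order, at place 4 in R1 and at place 5 in R2. Neighbours in the order did not overlap between libraries in any line, except DNMT3A and DNMT3B in R2, at 1.91 and 1.83 CPM per kb. The ratio of DNMT3A to DNMT3B per kb was 1.57 ± 0.144 in the parental line, 1.38 ± 0.188 in R1 and 1.05 ± 0.110 in R2 (SD, n = 3 libraries).

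The genes whose pattern over the 9 libraries was closest to a called gene were found by the root mean square difference of log2 levels, each centred on its mean. For CBX6 they were IGFBP3, which binds insulin-like growth factors, TIMP1, an inhibitor of matrix metalloproteinases, and DUSP5, a phosphatase of nuclear ERK, at differences of 0.0731, 0.127 and 0.127 log2 units. IGFBP3 went from 32.4 CPM in the parental line to 178 in R1 and 138 in R2. For DNMT3A they were CD24, PLXNA2 and HSD17B11 at 0.0416, 0.0663 and 0.0752 log2 units, and CD24, a cell surface glycoprotein, went from 186 CPM to 103 and 87.3. For DNMT3B they were AASDH, ZNF736 and DYNC2I1 at 0.0711, 0.0751 and 0.0840 log2 units.

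Of 24 genes of the DNA methylation machinery, including methyl-CpG binding proteins, 22 were tested. In R1 none rose and 7 fell, and in R2 none rose and 5 fell, with medians of -0.12 and -0.07. Of the 15 tested genes that are not among the 10, 3 fell in R1 and 1 in R2. ZBTB38, a methyl-CpG binding zinc finger protein, fell by 0.49 and 0.51 on the log2 scale (adjusted p = 1.17e-07 and 6.21e-08 by edgeR). UHRF2, the paralog of UHRF1, fell by 0.34 in R1 (adjusted p = 0.000151 by edgeR) and had a log2 fold change of -0.07 in R2 (adjusted p = 0.439 by edgeR). The difference between the resistant lines passed as well, 0.27 higher in R2 (adjusted p = 0.007 by edgeR).

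Of 14 PRC2 subunits and cofactors, 12 were tested. In R1, 1 rose and 3 fell, and in R2, 1 rose and 4 fell, with a median of -0.17 in each. EED, which binds the mark that PRC2 makes, rose by 0.25 and 0.24 (adjusted p = 0.00584 and 0.00836 by edgeR). MTF2, which brings PRC2 to CpG-rich DNA, fell by 0.42 and 0.34 (adjusted p = 3.36e-05 and 0.000509 by edgeR). LCOR, a corepressor whose locus also makes a PRC2 partner, fell by 0.41 and 0.20 (adjusted p = 3.45e-07 and 0.00345 by edgeR). The core subunits EZH2 and SUZ12 were in neither set.

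Of 22 PRC1 subunits, 20 were tested. In R1, 2 rose and 3 fell, and in R2, 5 rose and 3 fell, with medians of -0.04 and 0.07. Without CBX6, 1 of 19 rose in R1 and 4 of 19 in R2. PHC2, a polyhomeotic subunit through which PRC1 polymerises, went from 68.6 ± 4.61 CPM to 95.6 ± 8.01 and 93.1 ± 2.12 (SD, n = 3 libraries), rises of 0.48 and 0.44 (adjusted p = 5.54e-07 and 2.1e-06 by edgeR). RYBP, which defines the PRC1 forms that lack a CBX protein, fell by 0.48 and 0.51 (adjusted p = 1.3e-05 and 5.41e-06 by edgeR). PCGF3, a subunit of such forms, fell by 0.28 and 0.30 (adjusted p = 0.000274 and 0.000131 by edgeR). SCMH1, RNF2 and PHC3 rose in R2 by 0.39, 0.27 and 0.30, and their log2 fold changes in R1 did not pass the test.

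Of 15 genes whose products oppose Polycomb, 14 were tested. In R1, 1 rose and 8 fell, and in R2, 1 rose and 4 fell, with medians of -0.21 and -0.06. SMARCA4, the ATPase of SWI/SNF chromatin remodelling complexes, went from 282 ± 11.3 CPM in the parental line to 162 ± 1.37 in R1 and 165 ± 0.340 in R2 (SD, n = 3 libraries). This is a fall of 0.80 and 0.78 (adjusted p = 3.96e-14 and 7.3e-14 by edgeR). KMT2C, a histone H3 lysine 4 methyltransferase, fell by 0.78 and 0.45, and ASXL1, a partner of the enzyme that removes the PRC1 mark, by 0.38 and 0.33 (adjusted p from 1.35e-11 to 1.04e-05 by edgeR). KDM6B, a demethylase of H3 lysine 27, was the gene that rose, by 0.31 and 0.34 (adjusted p = 0.000356 and 9.69e-05 by edgeR).

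**Figure D4:**
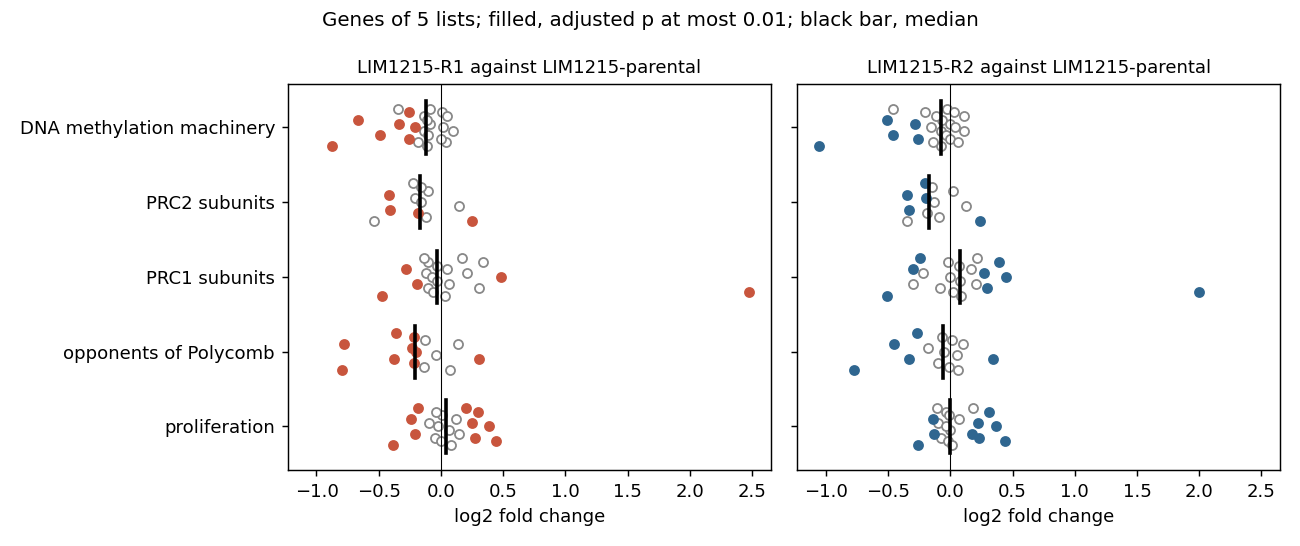
Log2 fold change against the parental line (horizontal axes) for every tested gene of 5 lists, in R1 (left) and R2 (right), with filled points where the adjusted p is 0.01 or less and a black bar for the list's median. CBX6, at 2.48 and 2.0, stands far to the right of the other PRC1 genes, and the medians of the 5 lists lie between -0.21 and 0.07.

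DNMT1, UHRF1 and EZH2 are known to be made mainly in dividing cells, and their sequences near the start are printed because each holds an E2F motif, the element through which many cell cycle genes are switched on. The letters TTTCGCGC and TTTGGCGC were searched on both strands and are shown in capitals with 10 bases on each side. DNMT1 has the first of them on the other strand (chr19:10194938-10194965), UHRF1 has it on the gene's strand (chr19:4909974-4910001), and EZH2 has the second on the gene's strand (chr7:148884273-148884300). Of all windows, 1.15% hold either.
DNMT1: atcggtttccGCGCGAAAagccggggcg
UHRF1: ccgagcccgaTTTCGCGCgccctgagtt
EZH2: ggctgccgcgTTTGGCGCtcggtccggt
A match is only a match of letters. In the list of 20 proliferation genes, 6 rose and 4 fell in R1 and 6 rose and 3 fell in R2, with medians of 0.04 and -0.0036. RRM2, a ribonucleotide reductase subunit, rose by 0.44 in both lines, CDC6, which loads the replicative helicase, by 0.28 and 0.37, and TOP2A, a DNA topoisomerase, by 0.30 and 0.22, whereas MCM5, a subunit of that helicase, fell by 0.38 and 0.26 (adjusted p from 6.72e-10 to 0.00134 by edgeR). PCNA had log2 fold changes of 0.01 and -0.04. Summed levels of the list were 5201 to 5292 CPM in the parental line, 5382 to 5588 in R1 and 5498 to 5625 in R2, and the part of proliferation in the levels of the 10 genes was not tested.

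Genes that these systems are known to keep silent were mostly not expressed. Of 27 developmental regulators bound by Polycomb in many cell types, 15 had 0 counts in all libraries and 9 were tested. In R1, 5 of them rose and 1 fell, and in R2, 3 rose and 2 fell. A gene that is silent in one line can be tested only through the line where it is higher, so these counts are a description. CDKN2A, a brake on the cell cycle, had 4 counts over the parental libraries and went from 0.0765 ± 0.0909 CPM to 1.41 ± 0.202 and 0.665 ± 0.0636 (SD, n = 3 libraries), from 68 and 32 counts in R1 and R2. LHX2, a homeodomain factor that also had 4 parental counts, went from 0.0722 ± 0.0796 CPM to 1.26 ± 0.243 and 1.12 ± 0.213, from 61 and 54 counts. Both genes were tested only because of their counts in the resistant lines, so no test is given for them. CCND2, a D-type cyclin named here after its values were seen, went from 152 ± 7.79 CPM to 234 ± 12.6 in R1 and 84.6 ± 3.36 in R2. It thus rose by 0.63 in one line and fell by 0.84 in the other, and the lines differed by 1.47 on the log2 scale (adjusted p = 1.01e-16 by edgeR).

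WT1, a zinc finger transcription factor, had 46 counts in the parental line, 1 in R1 and 0 in R2. This gene was tested only because of its parental counts, so no ratio or test is given for it.

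Of 12 genes used in panels of the CpG island methylator phenotype of colorectal tumours, 5 had 0 counts and 6 were tested. In each resistant line 2 rose and 1 fell. TIMP3, a metalloproteinase inhibitor, went from 24.8 ± 1.5 CPM to 86.2 ± 4.08 and 41.1 ± 1.85 (SD, n = 3 libraries), a log2 fold change of 1.80 and 0.73 (adjusted p = 5.21e-18 and 2.71e-09 by edgeR). CDKN2A, described above, is the other gene counted as higher. RUNX3, a transcription factor, had 29 counts in the parental line, 4 in R1 and 2 in R2. It too was tested only because of its parental counts, so no ratio or test is given for RUNX3. MGMT, a repair gene whose promoter is often methylated in such tumours, was not called, at 16.4, 17.2 and 16.9 CPM.

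Of 17 germline genes that promoter methylation keeps silent in somatic cells, 9 had 0 counts and 4 were tested. Their summed level was 2.05 to 2.96 CPM in the parental line, 3.00 to 3.62 in R1 and 4.03 to 4.70 in R2. MAGEA3 rose in R1, with a log2 fold change of 1.48 (adjusted p = 0.0035 by edgeR), and MAGEA6 rose in R2, with one of 1.12 (adjusted p = 0.000122 by edgeR). These cancer-testis genes are near-identical copies, so the counting may have split their reads and their separate values are uncertain.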

How the data were processed

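The authors aligned stranded, poly(A)-selected, paired-end reads to hg38 with STAR and counted sense reads per gene with htseq-count (HTSeq 0.9.1). They deposited the raw counts, without normalization, for each library. The annotation they used is not given in the sources used here. The counts were fitted here with edgeR 4.0.16 in R 4.3.3 (TMM scaling, genes whose 9 libraries held 10 counts or more in all, 1 quasi-likelihood model of the 3 lines on all 9 libraries, 19102 genes) with Benjamini-Hochberg adjustment. The threshold was an adjusted p of at most 0.01. Levels per kb used the canonical GENCODE v44 transcript, and promoter windows and positions came from RefSeq on GRCh38.p14.

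The 10 genes, the gene lists and the tests were chosen with earlier results of these data known. From each list, up to 4 genes called the same way in both resistant lines, with the largest mean change and at least 1 CPM in a line, were named, along with paralogs of the 10 genes. CCND2, WT1, RUNX3, SCMH1, RNF2, PHC3, PCNA, MGMT, MAGEA3 and MAGEA6 were named after their values were seen, and some genes of the lists are not reported here by name. Alternatives were DESeq2 1.42.0, other scalings and filters, removal of GC and length trends, a replicate block, other thresholds and leaving out each library. Replicate numbers did not pair the libraries (correlation of deviations -0.106 to 0.274 over 9 pairs).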

Additional observations from a re-analysis of the deposited data

Results flagged for a closer look

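CBX6 was the gene of the 10 whose change against the parental line differed between the resistant lines by a test of that difference. It stood at 117 ± 1.17 CPM in R1 and 83.8 ± 3.43 CPM in R2 (SD, n = 3 libraries), a log2 fold change of -0.48 for R2 against R1 (adjusted p = 4.51e-07 by edgeR). All 3 libraries of R2 lay below all 3 of R1, and 28% of all genes tested did not overlap between these lines. Whether the lines differ or only the cultures sequenced cannot be told apart.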

How the results depend on the processing

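The calls of CBX6 in all 3 comparisons and of DNMT3A in both comparisons with the parental line held under every alternative fit. Those of DNMT3B in R1 and of TET3 in R2 also held under all 17 of these fits. These fits kept the threshold of an adjusted p of at most 0.01, and other thresholds are given below. No called result changed direction. Leaving out 1 library at a time gave 3 to 6 of the 10 genes called in R1, 3 to 5 in R2 and 1 to 2 between the resistant lines, beside 5, 5 and 1. Removing GC and length trends left 3 genes called in R1. With the fold requirement of the study, 1, 1 and 0 of the 10 genes and 982, 921 and 146 of all genes were called, beside 5222, 4554 and 1368. Between the resistant lines an adjusted p of at most 0.05 gave 2478 genes, and leaving out 1 library gave 752 to 1733. The causes were not tested. Same-numbered libraries shared only a number, and with a replicate block 2 of the 10 genes were called between the resistant lines, since SUZ12 then passed (0.19, adjusted p = 0.00864 by edgeR), and 5841, 5197 and 2044 of all genes. With at least 10 counts required in every library, TET1 has no value. Depth limits TET1 and the low target genes most.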

Other observations

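The genes within 250 kb of CBX6, DNMT3A and DNMT3B, with 10 or more counts per library on average, were looked at after the values of these 3 genes were known. Of 10 neighbours of CBX6, 2 rose and 1 fell in R1, and 1 rose in R2. APOBEC3B, a cytidine deaminase gene 110131 bases away, was higher in both lines, with log2 fold changes of 1.19 and 0.89. Of the 2 neighbours of DNMT3A, EFR3B went from 1.37 CPM in the parental line to 0.248 and 0.265, and DTNB was not called. The log2 fold changes of EFR3B were -2.43 and -2.32. It met the count requirement only through its parental libraries, so this fall is a description. Of the 4 neighbours of DNMT3B, NOL4L fell by 0.75 and 0.87 on the log2 scale, COMMD7 fell in R2 and MAPRE1 rose in R1.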
